A study of Drosophila melanogaster with 4 samples.

Results

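The cytoplasmic ribosomal protein genes of the fly were described in mutant testes of Drosophila melanogaster. They were taken as the genes whose symbol in the deposited tables starts with RpL or RpS followed by a digit or by P, kinases excluded. This gave 85 of the 14664 genes in the tables. The rule reads symbols alone, but the group was chosen with earlier results of these data known. Of these genes 47 encode proteins of the large subunit, 35 encode proteins of the small subunit, and 3 (RpLP0, RpLP1 and RpLP2) encode the stalk of the large subunit. A set of 20 genes forms 10 pairs of paralogues, and the other 65 stand without a partner among these symbols.

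RNA was sequenced from testes mutant for both Phf7 and bam, and from testes mutant for bam, with 2 biological replicates of each genotype and 4 libraries in all. The bam defect is thus carried by all 4 libraries, and the genotypes differ in Phf7 as far as the labels say. The flies were at most 3 days past eclosion, and polyadenylated RNA was selected before library preparation. The labels name neither the alleles nor the number of animals per library, and whole testes hold germ cells, cyst and hub cells and a muscle sheath together.

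A ribosome consists of a large subunit, which joins amino acids, and a small subunit, which reads the mRNA, each built of ribosomal RNA and many proteins. The proteins are needed in matched amounts, and in flies the loss of 1 copy of many of these genes causes the Minute phenotype of slow growth and thin bristles. The mRNAs begin with a run of pyrimidines and are translated under the control of the TOR kinase. Several fly ribosomal proteins are encoded by a pair of genes, and some of the second copies, such as RpL22-like, are known to be active mainly in the germline.

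The target of the mutation was low in both libraries of the double mutant. Phf7, listed as CG9576, had 18.8 and 22.9 FPKM in Phf7 bam testes, against 173 and 152 FPKM in bam testes, a log2 difference of -2.91 (limma adjusted p = 0.00706). FPKM is a number of fragments scaled to the length of the transcript and the size of the library. Transcript of bam was listed at 26.5 to 32.6 FPKM in all 4 libraries. The 8 measured markers of early germ cells summed to 717 and 813 FPKM in Phf7 bam testes and to 709 and 669 FPKM in bam testes, whereas the 9 spermatocyte markers summed to 26.0 and 30.3 FPKM in Phf7 bam testes and to 28.1 and 26.5 FPKM in bam testes. Total FPKM lay between 650127 and 662056 per library. The number of reads per library is unknown, so counting error could not be worked out from reads. An interval was deposited with each FPKM, but many ribosomal protein genes lay outside theirs, as given below.

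Ribosomal protein genes were among the most abundant transcripts of these testes. They held 17.3% and 19.7% of all FPKM in Phf7 bam testes, and 17.9% and 17.3% in bam testes. The mean share was 18.5 ± 1.70% in Phf7 bam testes and 17.6 ± 0.395% in bam testes (SD, n = 2 each). The difference of 0.947 percentage points did not pass an exact two-sided permutation test (p = 0.667), in which 2 libraries against 2 allow no p below 0.333. The genotypes overlapped in this share, since replicate 1 of Phf7 bam lay between the bam libraries and replicate 2 lay above them. In bulk tissue, fewer cells of a type and less RNA per cell cannot be told apart in such a share.

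The median level over the 83 detected genes was 1340 and 1509 FPKM in Phf7 bam testes and 1382 and 1350 FPKM in bam testes. Of the 100 genes with the highest FPKM in a library, 46 and 53 were ribosomal protein genes in Phf7 bam testes and 50 and 49 in bam testes. By mean FPKM over the 4 libraries their ranks ran from 5, held by RpL41, to 559, held by RpS15Ab. RpL10Aa and RpS28a were listed at 0 in every library. Large subunit genes summed to 1.50 and 1.49 times the FPKM of small subunit genes in Phf7 bam testes and to 1.46 and 1.48 times in bam testes. These sums compare 47 large subunit genes, RpL41 among them and the stalk left out, with 35 small subunit genes. The median of the mean levels was 1423 FPKM for detected large subunit genes and 1384 FPKM for detected small subunit genes.

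Most of the genes lay close to each other in level. Within a library the gene at the 90th percentile of these genes had 2.81 and 2.74 times the FPKM of the gene at the 10th percentile in Phf7 bam testes, and 2.56 and 2.60 times in bam testes. The span was much wider at the ends, and the highest mean FPKM was 57.5 times the lowest. Outside the pairs of paralogues the lowest mean was 715 FPKM, held by RpL38. The 6 detected genes below it all belonged to pairs: RpS14b, RpL34a, RpL22, RpS19b, RpS10a and RpS15Ab. A limit on the order of genes came from the tables themselves, in which the FPKM of 46 of the 83 detected genes lay above the interval deposited with it in all 4 libraries. The midpoint of that interval, a measure chosen after seeing the data, is therefore given where it changes an order. By midpoints RpL39 was the lowest gene outside the pairs (322), below the paralogues RpS14b (337) and RpL34a (445). RpL38 (359) also lay below RpL34a on that scale.

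**Figure D1:**
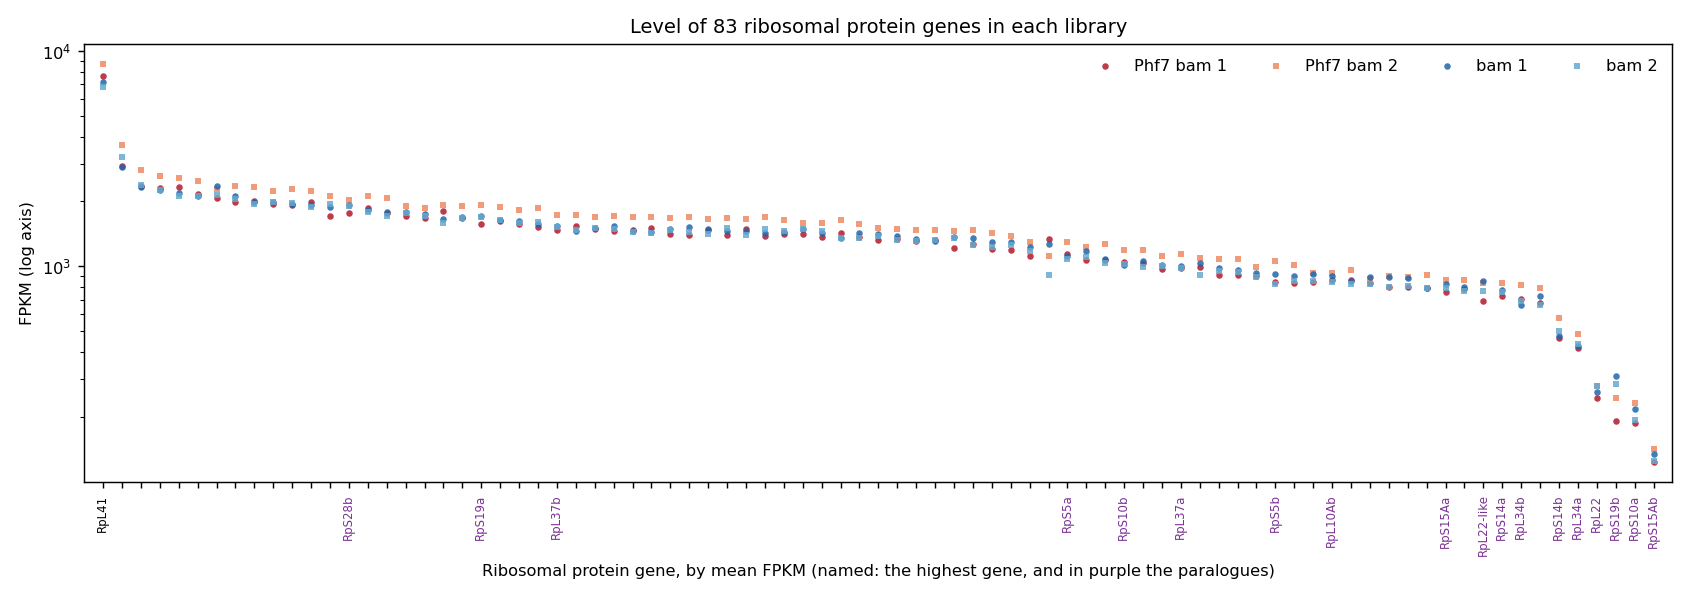
FPKM (log axis) of the 83 detected ribosomal protein genes in each of the 4 libraries, ordered by mean FPKM, with the paralogues named in purple and the highest gene in black. RpL41 stood apart at the top with 6796 to 8692 FPKM, and RpL22, RpS19b, RpS10a and RpS15Ab stood lowest, all of them paralogues. By interval midpoints, not drawn, RpL41 (2719) was close to RpS15 (2504).

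RpL41, which encodes a very small basic peptide at the interface of the subunits (2R, 20790940 to 20791452, in build dm3 like all coordinates here), was the highest of all. It had 7647 and 8692 FPKM in Phf7 bam testes, against 7163 and 6796 FPKM in bam testes. The genotypes did not overlap, but the difference of 0.225 on the log2(FPKM + 1) scale (SE 0.152) did not pass the test across all genes (limma adjusted p = 0.906). RpL29, a small basic protein of the large subunit, had 2932 and 3657 FPKM in Phf7 bam testes and 2877 and 3208 FPKM in bam testes. RpL29 was lowest in replicate 1 of bam, replicate 1 of Phf7 bam lay just above it, and the genotypes overlapped. By interval midpoints RpL41 was still the highest of these genes, at 2719, with RpS15 next at 2504, and RpL29 ranked 35.

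Among the stalk proteins, which recruit translation factors to the ribosome, RpLP1 had the highest FPKM, while by interval midpoints RpLP2 was higher (1723 against 1565). It had 2323 and 2562 FPKM in Phf7 bam testes, against 2181 and 2127 FPKM in bam testes. RpLP1 was thus higher in both libraries of Phf7 bam, by 0.179 in log2 terms with an SE of 0.133, without passing the test (limma adjusted p = 0.919). The small subunit genes with the highest FPKM were RpS15, which encodes a protein whose tail reaches the decoding site, and RpS7, whose midpoint of 1752 lay below that of RpS13 at 2161. RpS15 had 2354 and 2801 FPKM in Phf7 bam testes and 2347 and 2376 FPKM in bam testes, and RpS7 had 2322 and 2612 FPKM in Phf7 bam testes and 2268 and 2272 FPKM in bam testes. Replicate 2 of Phf7 bam was the highest library for both genes, while the other 3 libraries lay close together. By FPKM, RpL31, RpS29 and RpS13 also ranked among the 10 highest genes, with mean levels of 2132 to 2226 FPKM. By interval midpoints RpS13 ranked 3, RpS29 ranked 21 and RpL31 ranked 26.

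In the 10 pairs of paralogues the copies differed in level, and by FPKM the higher copy was the same in all 4 libraries of each of the 8 pairs with both copies detected. The values of near-identical copies are uncertain, since the sources used here do not say how reads that match both were shared out. Taking interval midpoints as levels moved the copies' parts in the RpL37, RpS10, RpS14 and RpS19 pairs by more than the spread between replicates.

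The pair whose second copy is best known from the testis was RpL22-like (2R, 19134115 to 19135360) and RpL22 (X, 656593 to 659172), whose protein binds RNA on the surface of the large subunit. RpL22-like had 689 and 837 FPKM in Phf7 bam testes and 855 and 766 FPKM in bam testes. RpL22 had 245 and 279 FPKM in Phf7 bam testes and 261 and 279 FPKM in bam testes. The germline-biased copy thus exceeded its partner in each library and supplied 74.4 ± 0.856% of the pair's FPKM in Phf7 bam testes and 75.0 ± 2.33% in bam testes (SD, n = 2 each).

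RpS19a (X, 16531912 to 16532953) and RpS19b (3R, 19758451 to 19759252) encode forms of a protein of the small subunit's head. RpS19a had 1570 and 1918 FPKM in Phf7 bam testes and 1720 and 1688 FPKM in bam testes, so the genotypes overlapped. RpS19b had 192 and 244 FPKM in Phf7 bam testes, against 311 and 285 FPKM in bam testes, so both libraries of Phf7 bam lay below both libraries of bam. RpS19a supplied 88.9 ± 0.269% of the pair's FPKM in Phf7 bam testes and 85.1 ± 0.613% in bam testes (SD, n = 2 each), and the log2 ratio of RpS19a to RpS19b differed by 0.483 between the genotypes.

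RpS5a (X, 17037620 to 17042287) and RpS5b (3R, 10726154 to 10727310) encode a protein of the small subunit's head, and RpS5b is known for its role in the female germline. RpS5a had 1139 and 1295 FPKM in Phf7 bam testes, against 1113 and 1087 FPKM in bam testes. RpS5b had 844 and 1056 FPKM in Phf7 bam testes and 918 and 833 FPKM in bam testes. The copies were closer in level than those of any other pair by the deposited FPKM, with RpS5a at 56.3 ± 1.67% in Phf7 bam testes and 55.7 ± 1.29% in bam testes (SD, n = 2 each).

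RpS10a (3R, 23478558 to 23479085), which has 1 exon and is known from the ovarian germline, was far below RpS10b (X, 19492064 to 19493111). RpS10a had 188 and 232 FPKM in Phf7 bam testes and 218 and 195 FPKM in bam testes, whereas RpS10b had 1053 and 1188 FPKM in Phf7 bam testes and 1018 and 1028 FPKM in bam testes. RpS15Ab (2R, 6709176 to 6709914), also of 1 exon, had the lowest FPKM of the detected genes, and by midpoints RpS10a was lower (130.6 against 131.8). It had 124 and 142 FPKM in Phf7 bam testes and 135 and 126 FPKM in bam testes, beside 759 and 863 FPKM of RpS15Aa (X, 13229806 to 13231687) in Phf7 bam testes and 828 and 791 FPKM in bam testes. RpS15Aa supplied 85.9 ± 0.0577% of its pair in Phf7 bam testes and 86.1 ± 0.219% in bam testes (SD, n = 2 each), the narrowest spread between replicates among the 8 pairs in Phf7 bam testes. RpS10a lies within the locus of tau, which had 1.51 to 3.26 FPKM, and RpS15Ab overlaps CG12343, which had 11.6 to 14.4 FPKM, by 172 bp. Their values are uncertain if reads were counted without regard to strand, which is not stated.

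RpL34a (3R, 21884142 to 21884989) and RpL34b (3R, 5226033 to 5226978) lie far apart on the same arm. RpL34a had 417 and 486 FPKM in Phf7 bam testes and 428 and 438 FPKM in bam testes. RpL34b had 706 and 816 FPKM in Phf7 bam testes, against 659 and 689 FPKM in bam testes. RpL34b was higher in both libraries of Phf7 bam, while RpL34a overlapped, and RpL34a supplied 37.2 ± 0.155% of the pair in Phf7 bam testes and 39.1 ± 0.411% in bam testes (SD, n = 2 each).

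RpS14a and RpS14b lie side by side on X (7827779 to 7828713 and 7828937 to 7829832). RpS14a had 730 and 842 FPKM in Phf7 bam testes and 778 and 760 FPKM in bam testes, and RpS14b had 467 and 579 FPKM in Phf7 bam testes and 476 and 500 FPKM in bam testes. RpS14a was the higher copy in every library. Its mean part of the pair over the 4 libraries was 60.7% by FPKM and 70.0% by interval midpoints.

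For RpL37a (X, 15032358 to 15033423) and RpL37b (2R, 18987627 to 18987896), the order depended on which deposited value was read. By FPKM, RpL37a had 979 and 1141 in Phf7 bam testes and 1000 and 978 in bam testes, and RpL37b, whose gene has 1 exon, had 1473 and 1733 in Phf7 bam testes and 1537 and 1528 in bam testes. RpL37b was thus higher in every library, and RpL37a supplied 39.8 ± 0.150% of the pair in Phf7 bam testes and 39.2 ± 0.275% in bam testes (SD, n = 2 each). The FPKM of RpL37b was 3.57 times the midpoint of its own interval, the most of any of these genes, and by midpoints RpL37a held 64.2% of the pair over the 4 libraries, so that the higher copy changed. RpL37A (2L, 5070957 to 5072055), a different protein despite its name, had 827 to 892 FPKM in the 4 libraries.

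In the remaining pairs the first copy was listed at 0 in all 4 libraries. RpL10Aa (3R, 10863088 to 10863872) and RpS28a (3R, 25848126 to 25848320) each have 1 exon. RpL10Ab (3L, 11815952 to 11817311) had 867 and 935 FPKM in Phf7 bam testes and 899 and 844 FPKM in bam testes. RpS28b (X, 9448652 to 9449254) had 1775 and 2028 FPKM in Phf7 bam testes and 1934 and 1906 FPKM in bam testes. Of the 6 ribosomal protein genes of 1 exon, 5 belonged to pairs, and these 5 were RpL10Aa, RpL37b, RpS10a, RpS15Ab and RpS28a. The sixth was RpLP2, with a mean of 1701 FPKM.

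**Figure D2:**
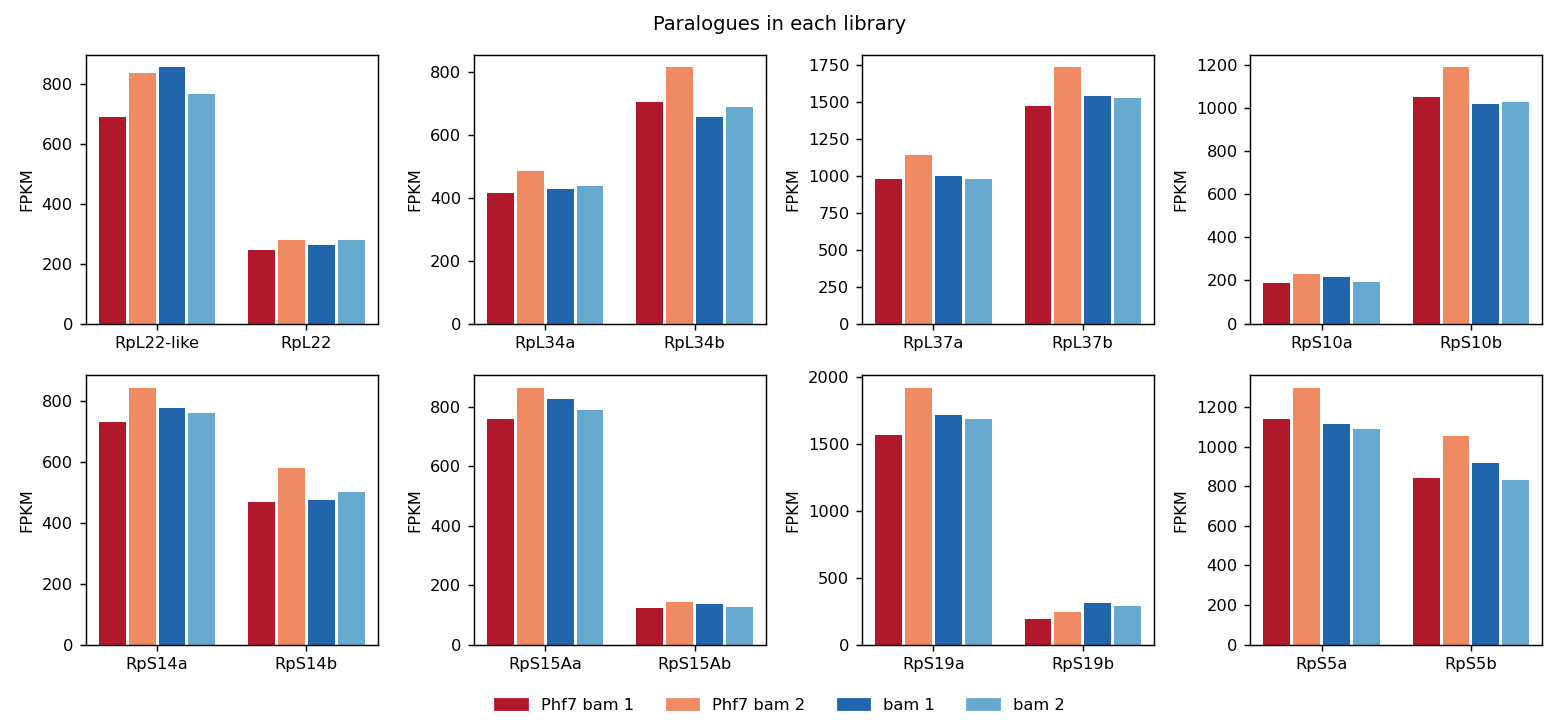
FPKM of both copies of the 8 pairs with both copies detected, 1 bar per library, with a separate FPKM axis from 0 in each panel. RpS19b was lower in both Phf7 bam libraries (192 and 244 FPKM) than in both bam libraries (311 and 285 FPKM), whereas RpS19a overlapped between the genotypes.

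The balance between copies was set side by side for the genotypes in the 8 pairs. The log2 ratio did not overlap between genotypes in 4 pairs: RpL34, RpL37, RpS15A and RpS19. Among single genes, 20.5% of all genes tested lay above and 14.0% below without overlap, so this count is not read as a result. The RpL37 and RpS15A ratios differed by only 0.0354 and -0.0278. Apart from the RpS19 pair, the difference in log2 ratio between Phf7 bam and bam was at most 0.115, that of the RpL34 pair. No pair passed an exact two-sided permutation test over the libraries, with p-values adjusted over the 8 pairs of 0.667 to 1, and with 2 libraries of each genotype no pair could have passed.

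No ribosomal protein gene passed the test of a difference between the genotypes. In the fit across the 8965 genes that averaged 1 FPKM or more, limma called 21 at an adjusted p under 0.05. These were 0.234% of the genes tested, or 0.123% higher and 0.112% lower in Phf7 bam, and 0 of the 83 tested ribosomal protein genes were among them. With moderation robust to outlying variances limma called 307 genes, or 3.42%, and again 0 of the 83. At an unadjusted p under 0.05, 1 ribosomal protein gene stood beside 6.13% of all genes tested. Both libraries of Phf7 bam lay above both libraries of bam for 17 of the 83 genes, or 20.5%, the same share as the 20.5% of all genes tested. Both libraries lay below for 1 of the 83 genes, RpS19b, beside 14.0% of all genes tested.

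The differences of these genes were small and mostly positive as deposited. The median was 0.0676 on the log2(FPKM + 1) scale, with 72 genes above 0 and 11 below, while under quantile normalization the median was 0 with 41 genes above and 41 below. Over all genes tested the median was 0.0308, and 57.4% were above 0, against 86.7% of the ribosomal protein genes. Over the 476 other genes at least as abundant as RpS15Ab the median was 0.0685, close to that of the ribosomal protein genes, and 66.4% were above 0. Their median level was only 221 FPKM, however, against 1409 FPKM for the ribosomal protein genes. The 102 other genes with a mean of at least 500 FPKM had a median level of 1229 FPKM. Their median difference was 0.0313, and 54.9% were above 0. Large subunit, stalk and small subunit genes had medians of 0.0664, 0.0921 and 0.0763, and the 14 genes on X had a median of 0.0737 beside 0.0676 for the autosomal ones. The 72 mitochondrial ribosomal protein genes, of which 71 were tested, had a median of 0.0536.

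The 82 genes other than RpS19b had differences between -0.0927 (RpL22-like) and 0.225 (RpL41), with standard errors of 0.122 to 0.214 over the 83 genes. Their spread from gene to gene, an SD of 0.0608, was smaller than any of those standard errors. Outside the pairs the largest positive differences after RpL41 were those of RpL23, RpL36, RpLP1 and RpS6. RpL23, which lies where the factor eIF6 keeps the subunits apart, had 1803 and 1934 FPKM in Phf7 bam testes, against 1657 and 1589 FPKM in bam testes (0.202, SE 0.127, limma adjusted p = 0.906). RpS6, the substrate of S6 kinase, had 1428 and 1637 FPKM in Phf7 bam testes, against 1351 and 1350 FPKM in bam testes (0.179, SE 0.136, limma adjusted p = 0.923). RpS6 overlaps the pseudogene CR33222, listed at 0, and its interval midpoints were 1448 and 1324 in Phf7 bam testes and 1093 and 1093 in bam testes. Both genes were higher in each library of Phf7 bam by less than could be told from the spread between libraries.

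At the other end, RpS29 had the lowest difference outside the pairs, at -0.0467, followed by RpL4 at -0.0264. RpS29 encodes a zinc-binding protein of the small subunit, and RpL4 encodes a protein that lines the exit tunnel. RpL37A, RpL32 and RpL15 followed, at -0.0062, -0.0044 and -0.0018. RpL32, often used as a reference transcript in fly experiments, had 1716 and 2132 FPKM in Phf7 bam testes and 1888 and 1949 FPKM in bam testes. RpL15, placed in the heterochromatin of chromosome 3L by the tables, had 803 and 890 FPKM in Phf7 bam testes and 885 and 810 FPKM in bam testes. For both genes the replicates of Phf7 bam enclosed those of bam.

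**Figure D3:**
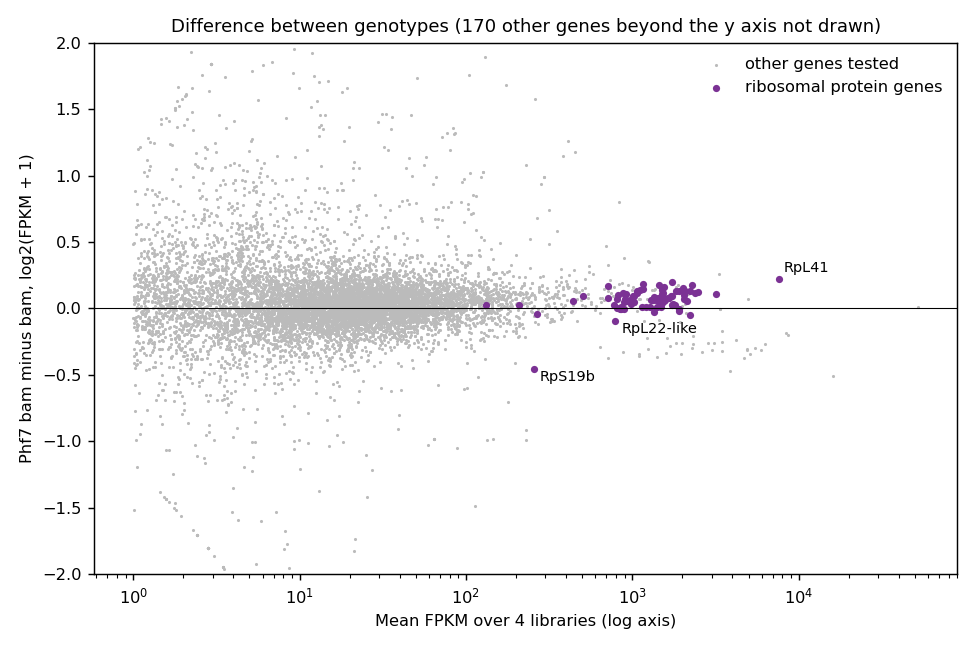
Difference between Phf7 bam and bam testes in log2(FPKM + 1) against mean FPKM over the 4 libraries (log axis), with the 83 ribosomal protein genes in purple and the other genes tested in grey. Nearly all ribosomal protein genes lay in a narrow band around a median of 0.0676, which was 0 under quantile normalization, and RpS19b lay below the band at -0.456. Not drawn are 170 other genes with differences beyond 2 in either direction.

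RpS19b was the ribosomal protein gene farthest from the others. It averaged 218 ± 36.6 FPKM in Phf7 bam testes and 298.1 ± 18.4 FPKM in bam testes (SD, n = 2 each), a difference in means of -26.8% of the bam level. The log2 difference was -0.456 (SE 0.160), which lay 0.524 below the median of the ribosomal protein genes. It had an unadjusted p of 0.0389 but did not pass the test across all genes (limma adjusted p = 0.771, or 0.122 with robust moderation). The difference was negative in each of the 15 other settings tried, between -0.627 and -0.285, but only the scalings could have turned it. The filters, trend, moderation, status and blocks leave the estimate at -0.456. Because the genotypes did not overlap, neither another pseudocount nor a left-out library could turn the sign. The difference was -0.482 with equal medians and -0.567 with quantile normalization. It did not pass the test in any setting that kept all 4 libraries. It was -0.285 without replicate 1 of Phf7 bam and -0.627 without replicate 2 of Phf7 bam, so the size rested on which library of Phf7 bam was kept.

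Replicate 2 of Phf7 bam was high for most genes, the ribosomal protein genes among them, and the direction of their median rested on it. It was the highest library for 78 of the 83 genes and exceeded replicate 1 of Phf7 bam for 82 of them. Over all 8965 genes tested it was the highest for 5149 and exceeded replicate 1 for 7492, and over the 71 mitochondrial ribosomal protein genes tested for 56 and 68. The median gap between replicates was 0.208 on the log2 scale in Phf7 bam testes and 0.0467 in bam testes, while over all genes tested it was 0.206 in Phf7 bam testes and 0.0974 in bam testes. Without replicate 2 of Phf7 bam the median difference was -0.0405, and without replicate 1 of Phf7 bam it was 0.178. From the spacing of the lowest FPKM values, taking bam replicate 1 as 1, relative depth was estimated at 1.16 and 1.42 for the Phf7 bam libraries and at 1.22 for bam replicate 2, and its part in the result was not tested.

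RpL36 was the exception to this pattern. It had 1340 and 1113 FPKM in Phf7 bam testes and 1269 and 914 FPKM in bam testes, so replicate 1 was the higher library of both genotypes. Its standard error of 0.214 was the largest of the 83 genes, and its difference of 0.181 did not pass the test (limma adjusted p = 0.965).

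**Figure D4:**
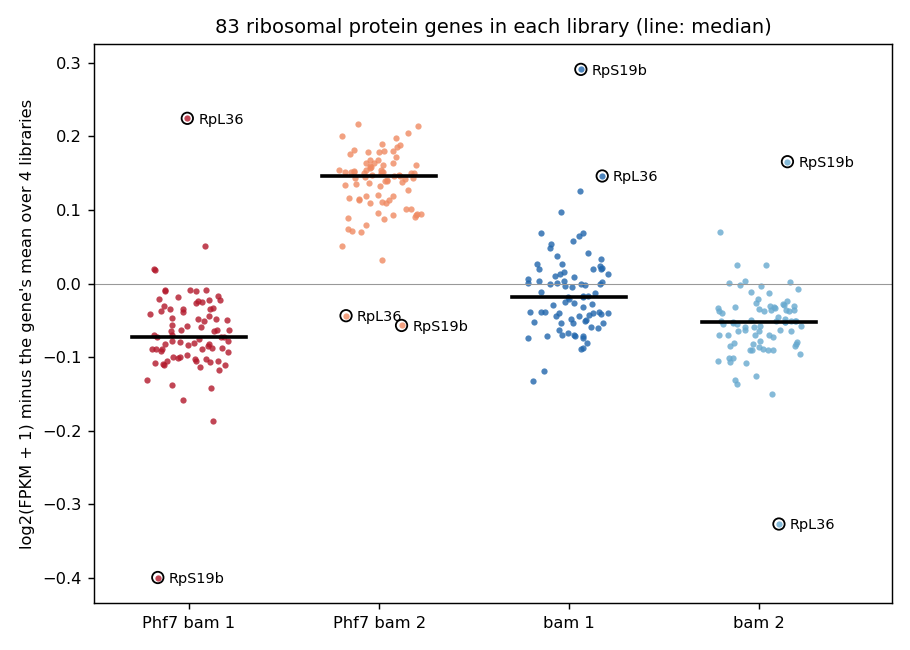
Deviation of each of the 83 ribosomal protein genes from its own mean over the 4 libraries in log2(FPKM + 1), with 1 point per gene and library and a line at the median. The medians were -0.0722 and 0.146 in the Phf7 bam libraries and -0.0183 and -0.0527 in the bam libraries, and RpL36 and RpS19b are circled as the genes that departed from the rest.

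Proteins of the cytoplasmic ribosome that the tables list under other names had similar levels, and none passed the test. The gene sta, which encodes the small subunit protein SA, had 2084 and 2394 FPKM in Phf7 bam testes and 2051 and 2100 FPKM in bam testes. RpS2, listed as sop, had 1895 and 2105 FPKM in Phf7 bam testes, against 1829 and 1706 FPKM in bam testes. RpS21, listed as oho23B, had 758 and 818 FPKM in Phf7 bam testes, against 689 and 672 FPKM in bam testes, a difference of 0.210 (SE 0.120, limma adjusted p = 0.906). Rack1, a scaffold protein on the small subunit, had 1443 and 1573 FPKM in Phf7 bam testes, against 1438 and 1420 FPKM in bam testes. RpS2, RpS21 and Rack1 were higher in each library of Phf7 bam, as were 20.5% of all genes tested. RpL10, listed as Qm, had 855 and 988 FPKM in Phf7 bam testes and 918 and 839 FPKM in bam testes.

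Apart from RpL22-like, described above, the genes annotated as like a ribosomal protein were much lower than sta, RpS2, RpS21, Rack1 and RpL10. RpL24-like had 136 and 168 FPKM in Phf7 bam testes and 158 and 158 FPKM in bam testes, RpL7-like had 82.1 and 101 FPKM in Phf7 bam testes and 98.7 and 97.3 FPKM in bam testes, and RpLP0-like had 76.5 and 88.6 FPKM in Phf7 bam testes and 92.3 and 82.3 FPKM in bam testes. RpS28-like was listed at 0 in every library. The genotypes overlapped for each of the 3 detected genes.

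Genes that act with the ribosome were read from the same fit, and 0 of them passed the test. Of 9 elongation and termination factors 7 were above 0 and 2 below, with a median difference of 0.0724. Ef1alpha48D, which brings aminoacyl-tRNA to the ribosome, had 4792 and 5351 FPKM in Phf7 bam testes and 4867 and 4765 FPKM in bam testes. Of 13 growth control genes 7 were above 0 and 6 below, with a median of 0.0389. The Myc gene dm had 105 and 122 FPKM in Phf7 bam testes and 108 and 95.9 FPKM in bam testes. Of 14 ribosome assembly genes 2 were above 0 and 12 below, with a median of -0.0992, the opposite sign to the median of the ribosomal protein genes as deposited. Fib, the methyltransferase fibrillarin, had 157 and 183 FPKM in Phf7 bam testes and 186 and 180 FPKM in bam testes, and the genotypes overlapped.

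Markers of fat body and haemocytes, cell types outside the testis, had higher sums in both double mutant libraries. The 7 fat body markers summed to 52.6 and 64.7 FPKM in Phf7 bam testes, against 22.4 and 32.6 FPKM in bam testes. Lsp2, Tsf1 and Yp3 were higher in both Phf7 bam libraries, and the genotypes overlapped for Lsp1beta and Fbp1. Yp1, under 0.3 FPKM in all 4 libraries, was lower in both Phf7 bam libraries. So was Yp2, at 0.494 and 0.475 FPKM in Phf7 bam testes against 0.706 and 0.576 FPKM in bam testes. The 5 haemocyte markers summed to 27.8 and 28.7 FPKM in Phf7 bam testes, against 20.0 and 21.3 FPKM in bam testes. Robust moderation in limma called Tsf1, Yp3 and Hml among these markers, and the default moderation called 0. The 5 muscle sheath markers summed to 516 and 593 FPKM in Phf7 bam testes and to 441 and 578 FPKM in bam testes, the 7 cyst and hub markers to 106 and 124 FPKM in Phf7 bam testes and to 119 and 120 FPKM in bam testes, and the 5 gut markers to 8.12 and 6.14 FPKM in Phf7 bam testes and to 7.05 and 4.68 FPKM in bam testes. The part of these cells in the ribosomal protein values was not tested.

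Gene structure did not enter the choice by symbol, and it was not compared with that of other genes. By the current annotation their coding sequences ran from 75 to 1248 bp with a median of 465 bp, and the loci in the tables had a median length of 1127 bp. They were spread over the genome, with 20 on 2R, 22 on 3R, 15 on 2L, 12 on 3L, 14 on X, 1 on chromosome 4 (RpS3A) and 1 in the heterochromatin of 3L (RpL15). In all, 67 loci of small nucleolar RNAs, which guide modification of ribosomal RNA, lay inside 25 of the genes. RpS5a held the most, 14, followed by RpS7 with 7 and by RpL28 and RpS16 with 5 each.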

How the data were processed

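Per the labels' protocols, RNA of dissected testes was selected with oligo-dT and made into directional libraries. TopHat2, Cufflinks, Cuffdiff and the build dm3 appear in the submitters' processing notes, without settings. The authors deposited 1 FPKM per gene and library with an interval and a status, per the file headers. Counts, depth and the use of strand were not stated. Genes were joined by identifier. Table starts count from 0, and 1 was added.

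The 8965 genes averaging 1 FPKM or more were fitted as log2(FPKM + 1) on genotype with limma 3.58.1 in R 4.3.3, with a trend, two-sided tests and Benjamini-Hochberg adjustment over all genes. The fit had 2 residual and 2.64 prior degrees of freedom. The fit was tested on simulated data. Shares and ratios used an exact permutation test in Python 3.11.15. Fold changes on this scale understate those of low genes. P-values measure the spread between the libraries, which the series calls biological replicates.

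Members and lists were chosen with earlier results of these data known. Named genes are Phf7, bam, all paralogues, the 10 highest members, the 5 largest and 5 smallest differences outside pairs, called members, members at 0 and up to 3 genes of each other list, of which 2 members are not reported here. RpL38, RpL39, RpLP2, the genes listed under other names and the fat body and haemocyte markers were named after their values were seen. The entry qm of a list matched an unrelated gene and was dropped. Annotation (74 members by identifier, 11 by symbol) is of a later build and supplied coding length, exons and names. Promoter and protein sequences were not analysed here.

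The settings varied were the pseudocount (0.1, 0.5), the filter (none, 5), the scaling, the moderation, the status, a replicate block and the library left out. A crossed pairing and the interval midpoints were added after seeing the data.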

Additional observations from a re-analysis of the deposited data

How the results depend on the processing

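Over the 15 other settings limma called 0 ribosomal protein genes, while the count over all genes moved. It was 0 with no filter, 37 with a mean FPKM of at least 5, 307 with robust moderation and 0 to 101 with a library left out, against 21. It was 76 without replicate 1 of bam, 101 without replicate 2 of bam and 0 without either library of Phf7 bam. At an unadjusted p under 0.05 stood 37 ribosomal protein genes and 1432 of all genes without replicate 1 of Phf7 bam, and 1 and 979 without replicate 2 of Phf7 bam. The difference of Phf7 was -2.77 without replicate 1 of Phf7 bam and -3.05 without replicate 2, and was not called in either case or with no filter. With a library left out, the remaining library of its genotype is assumed to vary like the other genotype. Deviations of replicates with the same number had r = -0.367 over all genes tested, 0.550 over the 83 ribosomal protein genes and 0.216 without RpL36, and the labels do not say that a number marks a pairing. A replicate block called 18 genes, 0 of them ribosomal, and the crossed pairing called 133, 0 of them ribosomal.

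The median difference of the ribosomal protein genes ranged from -0.0405 to 0.178 with a library left out, was 0.0415 with equal medians and 0 with quantile normalization. The filter, trend, moderation, status and block settings leave a gene's log2 difference unchanged and cannot turn its direction. Of 495 comparisons over 33 named ribosomal protein genes, 38 turned, 31 of these with a library left out and 7 under a scaling. The 457 that kept their direction include those fixed comparisons, so they are no measure of stability. The genes that turned numbered 23, and the cause was not tested. Under quantile normalization RpL10Ab was -0.0346, RpL34a -0.110, RpS10a -0.0922, RpS14a -0.0517, RpS14b -0.0598 and RpS15Ab -0.0455, and with equal medians RpS10a was -0.0040. With a library left out, ranges were -0.0068 to 0.103 for RpL10Ab, -0.0763 to 0.0727 for RpL15, -0.139 to 0.0495 for RpL22, -0.233 to 0.0477 for RpL22-like, -0.0513 to 0.267 for RpL29, -0.161 to 0.152 for RpL32, -0.0547 to 0.167 for RpL34a, -0.0557 to 0.417 for RpL36, -0.0602 to 0.0479 for RpL37A, -0.0148 to 0.207 for RpL37a, -0.0566 to 0.178 for RpL37b and -0.154 to 0.102 for RpL4. They were -0.127 to 0.172 for RpS10a, -0.0653 to 0.172 for RpS13, -0.0748 to 0.130 for RpS14a, -0.0630 to 0.246 for RpS14b, -0.0047 to 0.246 for RpS15, -0.0928 to 0.0925 for RpS15Aa, -0.0693 to 0.124 for RpS15Ab, -0.117 to 0.171 for RpS19a, -0.114 to 0.0789 for RpS28b, -0.121 to 0.0274 for RpS29 and -0.0517 to 0.272 for RpS5b. Among other genes they were -0.106 to 0.321 for Act57B, -0.0072 to 0.152 for Ef1alpha48D, -0.0360 to 0.361 for Try29F, -0.187 to 0.0333 for mia and -0.0648 to 0.0580 for vas.

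The share of FPKM differed by -0.254 to 2.15 percentage points with a library left out, so its sign rested on replicate 2 of Phf7 bam. By interval midpoints RpL37a held 64.2% of its pair, RpS10a 10.8%, RpS14a 70.0% and RpS19a 90.6%, against 39.5%, 16.3%, 60.7% and 87.0% by FPKM, and the RpS19 log2 ratio still differed by 0.486.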

Other observations

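The FPKM of a ribosomal protein gene often disagreed with the interval deposited beside it, by a nearly fixed factor per gene. The factor between FPKM and the midpoint of the interval ranged from 0.985 to 3.57 over the 83 detected genes, with a median of 1.20 beside 1.02 for the other genes. After RpL37b it was largest for RpL39 (3.14), RpL41 (2.79) and RpL29 (2.71). Between the 4 libraries it varied by a median of 0.227% within a gene, and RpS6 was the exception at 25.3%. Apart from RpS6, differences between genotypes within a gene are therefore nearly the same on either scale, while the order of genes is not. The fold between the highest and the lowest gene was 57.5 by FPKM and 20.8 by midpoints, and 5 of the 10 highest genes were the same on both scales. The deposited status was OK for all of these genes in every library.

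Neighbours that overlap a ribosomal protein gene were often listed at 0. Of the 14 genes annotated as protein-coding whose locus overlaps one of these genes, 9 were at 0 in all 4 libraries, or 64.3%. Of all 12418 genes so annotated in the tables, 9.38% were at 0. The detected gene tau, which overlaps RpS10a, was not matched to an annotated type and is left out of this count. Genes that overlap other kinds of genes were not compared. The overlaps of these 9 genes were between 2 and 678 bp long. CG6693 overlaps RpL3 by 678 bp and was at 0 in every library, and CG9752, which overlaps RpL29 by 3 bp, was at 38.6 FPKM in bam replicate 1 and at 0 in the other 3. Dref, whose locus overlaps RpL13 by 144 bp, had 31.7 and 36.0 FPKM in Phf7 bam testes and 35.6 and 35.4 FPKM in bam testes. CG6693, CG9752 and Dref were picked for their values.

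Of the 67 small nucleolar RNA loci inside ribosomal protein genes 12 were listed at 0 in all 4 libraries (17.9%), and of all 249 such loci in the tables, these 67 included, 69 were (27.7%). The difference was not tested.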
